A study of Caenorhabditis elegans with 12 samples.

Results

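The 10 genes described here encode parts of the autophagy machinery of Caenorhabditis elegans together with HLH-30, the worm counterpart of the mammalian transcription factor TFEB. They are hlh-30, unc-51, bec-1, atg-7, atg-9, atg-18, lgg-1, lgg-2, sqst-1 and epg-5, chosen by role and by name, and all 10 were found among the 46726 genes of the deposited count table. Messenger RNA of whole worms was sequenced on day 7 of adulthood in N2 worms, the standard wild type (6 libraries), and in TG1660 worms (6 libraries), whose genome carries the xpf-1(tm2842) allele in the DNA repair nuclease gene xpf-1. All worms were fed the E. coli strain OP50. Each sample was a pool of many age-matched animals, and the mutant is 1 strain with 1 allele, so other differences between the strains cannot be told apart from the loss of xpf-1.

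Autophagy encloses cytoplasm in a membrane that becomes an autophagosome, which fuses with a lysosome so that its content is broken down. The kinase UNC-51 starts the process, a lipid kinase complex with BEC-1 marks the membrane, ATG-9 and ATG-18 help it to grow, and ATG-7 drives the coupling of the ubiquitin-like proteins LGG-1 and LGG-2 to lipid. SQST-1 carries tagged cargo into the vesicle, EPG-5 helps the vesicle to fuse with late endosomes and lysosomes, and HLH-30 switches on autophagy and lysosome genes, in worms that fast and in several long-lived mutants among others. The measurements here are of transcripts only. In RNA of whole animals, fewer cells of a type and less RNA per cell cannot be told apart.

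Library totals ran from 18407182 to 22817135 counts. The xpf-1 transcript (WBGene00008140) had 1192 to 1758 reads in the N2 libraries and 213 to 304 in the mutant libraries. The library titled N2 replicate 6 has a genotype label that names the mutant, but its 1468 xpf-1 reads lay inside the N2 range, and it was kept in N2. The labels speak of 3 biological replicates for each condition while each has 6 libraries here, so the p-values may in part reflect technical spread. N2 replicate 5 stood apart from the other N2 libraries. Its chi-square per degree of freedom was 45.4 to 65.4 against each of them, where pairs of the others had 6.12 to 21.8, and its mitochondrial share of counts was 0.884% against 1.8% to 2.45%. Mutant replicates 1 and 5 stood apart from the other 4 mutant libraries in the same measure, with 23.2 to 45.7 against 6.64 to 11.8 among those 4. Mutant replicates 1 and 5 were closer to each other, at 14.4. These 3 libraries were kept, and a fit without them is given beside the counts.

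Markers of other tissues moved between the genotypes as well. Of 26 germline and oocyte markers 25 fell and 1 rose, and their summed level ran from 7372 to 8225 CPM in N2 and from 4031 to 4392 CPM in xpf-1, a unit of counts relative to the library total after TMM scaling. Among 7 tested hypodermis markers there were 4 increases and 2 decreases (median log2 difference 1.14), while their summed level was 371 to 405 CPM in N2 and 359 to 376 CPM in xpf-1. Of 11 intestine markers 5 rose and 3 fell, at 7631 to 10637 CPM in N2 and 9668 to 20058 CPM in xpf-1. Most of that sum came from the yolk genes vit-2, vit-5 and vit-6, of which vit-5 did not pass. Their means were 2064, 3420 and 2303 CPM in N2 and 3681, 4441 and 3835 CPM in xpf-1. The 3 intestine markers that fell were asp-1, cpr-1 and mtl-2, so the sum does not describe the list as a whole. Body wall muscle had 3 higher and 4 lower of 9 markers (563 to 666 against 475 to 563 CPM), and neurons had 4 higher and 1 lower of 11 (380 to 416 against 405 to 431 CPM). Of 3 coelomocyte markers 2 fell, and their summed level was at least 24.0 CPM in every N2 library and at most 17.9 CPM in every mutant library. Pharynx, embryo and sperm lists had 1 or 2 calls in each direction. No listed marker was at 0 in all libraries. The part of these differences in the results that follow was not tested.

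Of the 10 autophagy genes, 7 were higher in xpf-1, 0 were lower and 3 did not pass the test. Over all 14248 genes tested, 30.1% were higher and 29.6% lower by the same rule, which asks for a Benjamini-Hochberg adjusted p under 0.05 over all of them from the quasi-likelihood test of edgeR. Without the 3 libraries that stood apart, 6 of the 10 were higher and 0 lower, against 25.9% and 26.9% of the genes tested, and atg-7 lost its call. With upper quartile scaling the 10 genes again gave 7 higher and 0 lower, where 5134 of all tested genes were higher and 3513 lower. With N2 replicate 6 counted as a mutant library, 5 were higher and 0 lower, against 22.6% and 23.2% of the genes tested. The calls of atg-7 and lgg-2 were then lost. The increases stand beside higher and lower markers of several tissues, as given above. The cargo receptor gene sqst-1 had the largest difference, and the Atg8 gene lgg-1 had by far the most transcripts. For sqst-1 and lgg-1 every mutant library lay above every N2 library, which was so for 17.9% of all tested genes. The median log2 fold change of the 10 was 0.15, against 0.03 over all tested genes. A test against a 1.5-fold change kept sqst-1 and no other of the 10, where 6.88% of all tested genes passed as higher. In the authors' deposited table the same 7 genes were marked as changed.

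**Figure D1:**
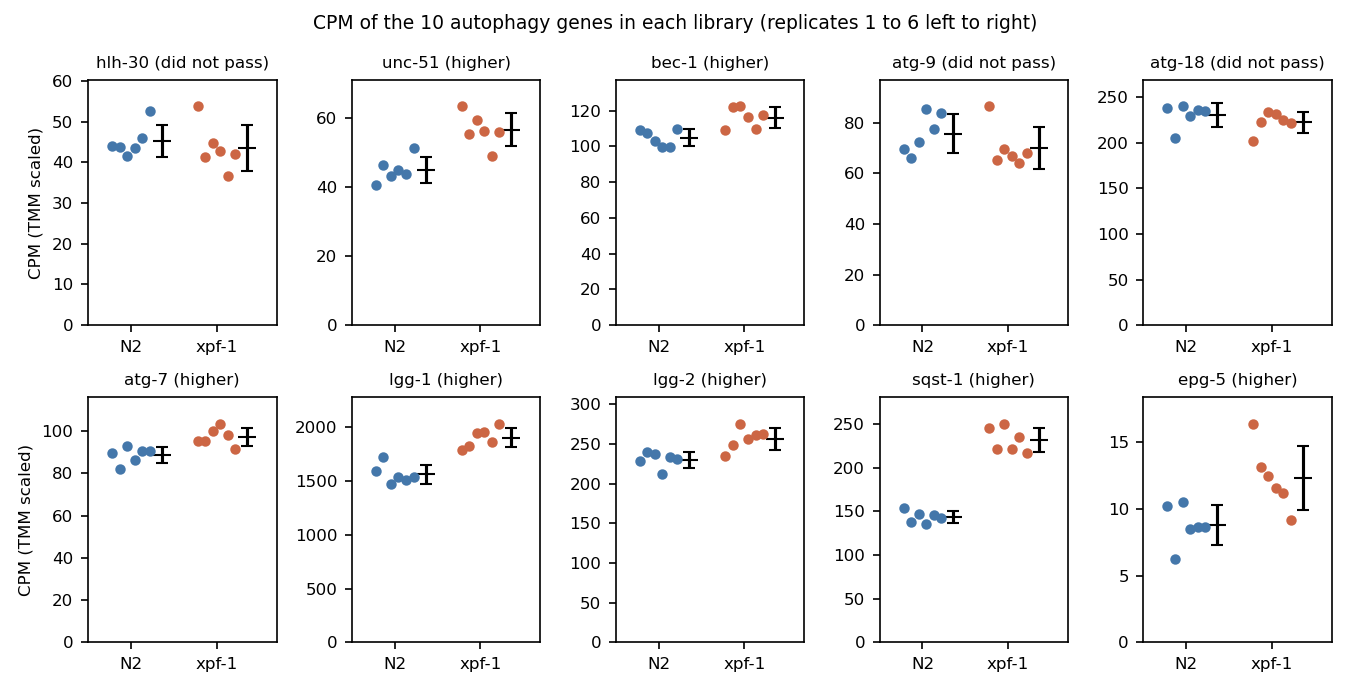
CPM (TMM scaled, axis from 0) of each of the 10 genes in each library, with N2 in blue and xpf-1 in orange; bars are the mean ± SD of 6 libraries. The groups are apart for sqst-1 and lgg-1, and mutant replicate 1 stands above the other mutant libraries for atg-9 (86.6 CPM).

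The transcription factor gene hlh-30 (WBGene00020930, chromosome IV, 4014799 to 4028127, minus strand, WBcel235) did not pass the test. In a newer Ensembl annotation of the same build hlh-30 spans 4014793 to 4034951. It has 3268 exon bases there, against a deposited length of 2992 bases. The deposited hlh-30 entry stood at 41.5 CPM in the lowest, 43.98 in the median and 52.8 in the highest N2 library, and at 36.8, 42.4 and 53.8 CPM in xpf-1. The groups overlapped throughout, and the highest value of each came from N2 replicate 6 and from mutant replicate 1. On the log2 scale hlh-30 differed by -0.06 ± 0.07 (SE; 95% interval -0.21 to 0.10), and its edgeR adjusted p was 0.541. Its value moved with the libraries used, to 0.11 in replicates 1 to 3 (edgeR adjusted p 0.399) and to -0.22 in replicates 4 to 6 (0.0352). Removing the trend of counts with gene length gave -0.17 (edgeR adjusted p 0.0233), and its sign turned with library totals only (0.01) and with upper quartile scaling (0.02), without passing in either.

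Over the 12 libraries, the profile most like that of hlh-30 among 9459 other protein-coding genes of at least 5 CPM was that of asm-2, an acid sphingomyelinase gene. The root mean square difference of their centred log2 CPM was 0.0751, where hlh-30 itself varied by 0.143 about its mean and the median over those genes was 0.238. R148.3, the respiratory complex I gene nuo-5, srpa-72 and C16D9.4 followed with 0.0795 to 0.0839. None of these 5 genes passed the test between genotypes. That was largely set by the choice, since they were picked for likeness to hlh-30, which did not pass, over the same libraries. These values describe the 12 libraries and were not tested.

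Transcripts of unc-51, which encodes the kinase that starts autophagosome formation (the worm ATG1 and ULK1; WBGene00006786, chromosome V, 19995987 to 20004485, minus strand), rose. Its lowest, median and highest values were 40.6, 44.4 and 51.4 CPM in N2 and 49.05, 56.2 and 63.5 CPM in xpf-1. Of the 6 mutant libraries, 5 lay above all N2 libraries and replicate 5 lay within their range. The log2 fold change was 0.33 ± 0.06 (SE), a 1.26-fold difference with an edgeR adjusted p of 4.59e-05. It was 0.46 in replicates 1 to 3 and 0.21 in replicates 4 to 6, past the threshold in both.

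For bec-1, the beclin subunit of the lipid kinase complex (WBGene00000247, chromosome IV, 5661142 to 5664425, minus strand), the same 3 values were 99.5, 105.3 and 109.9 CPM in N2 and 109.0, 116.8 and 122.5 CPM in xpf-1. Mutant replicates 1 and 5 reached into the N2 range and the other 4 lay above it. The increase was 0.15 ± 0.05 log2 units (SE, edgeR adjusted p 0.00954), and it did not pass in replicates 1 to 3 alone (0.15, edgeR adjusted p 0.159) or without a low-count filter (0.11, adjusted p 0.112). With upper quartile scaling it was 0.22.

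Both members placed here at membrane growth, atg-9 and atg-18, missed the threshold. The scramblase gene atg-9 (WBGene00020706, chromosome V, 348789 to 358841, plus strand) stood at 65.9, 74.9 and 85.5 CPM in N2 and at 64.1, 67.4 and 86.6 CPM in xpf-1. In the newer annotation atg-9 spans 349385 to 359658, with 3589 exon bases against a deposited length of 2991 bases. Mutant replicate 1 had the highest value of all 12 libraries, and the other 5 mutant libraries lay at 64.1 to 69.5 CPM. The log2 fold change of atg-9 was -0.11 ± 0.07 (SE, edgeR adjusted p 0.185). It passed as a decrease without mutant replicate 1 (-0.17, edgeR adjusted p 0.0178), in replicates 4 to 6 (-0.30, 0.000271), without a low-count filter (-0.16, 0.0256) and with the length trend removed (-0.22, 0.000616), while in replicates 1 to 3 it was 0.09 (0.499).

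The phosphoinositide-binding WIPI gene atg-18 (WBGene00018294, chromosome V, 8629221 to 8631325, minus strand) ran from 204.7 to 239.9 CPM in N2 and from 201.3 to 234.0 CPM in xpf-1, with medians of 235.2 and 223.8. The ranges of atg-18 lay almost on top of each other. The log2 difference of -0.05 ± 0.05 (SE) had a 95% interval from -0.15 to 0.05 (edgeR adjusted p 0.381), and atg-18 passed under none of 30 alternatives. These alternatives overlap, since some only tighten the threshold of the same fit or change only the epg-5 entry.

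The E1-like enzyme gene atg-7 (WBGene00010882, chromosome IV, 11078678 to 11081055, minus strand) rose slightly. Its lowest, median and highest values were 81.8, 89.95 and 92.9 CPM in N2 and 91.2, 96.6 and 103.5 CPM in xpf-1. Mutant replicate 6 lay within the N2 range and the other 5 above it. At 0.13 ± 0.05 log2 units (SE) it had the smallest change of the 7 that passed, with an edgeR adjusted p of 0.0198. The call of atg-7 was lost without N2 replicate 4 (edgeR adjusted p 0.0544), without mutant replicate 4 (0.0575), without the 3 libraries that stood apart (0.0515), with N2 replicate 6 taken as a mutant library (0.091), without a low-count filter (0.192), and in replicates 1 to 3 (0.193) and 4 to 6 (0.0627). With upper quartile scaling the change was 0.21.

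Both Atg8 genes rose. LGG-1 is the worm relative of the mammalian GABARAP proteins and LGG-2 that of the LC3 proteins, and both are attached to the autophagosome membrane. The lgg-1 transcript (WBGene00002980, chromosome II, 6346957 to 6347719, minus strand) stood at 1474, 1533 and 1722 CPM in N2 and at 1789, 1899 and 2031 CPM in xpf-1. The lowest mutant library was above the highest N2 library, N2 replicate 2. The increase of lgg-1 was 0.28 ± 0.05 log2 units (SE), or 1.22-fold, with an edgeR adjusted p of 2.1e-05, and in replicates 1 to 3 alone it was 0.22 (adjusted p 0.0541).

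For lgg-2 (WBGene00002981, chromosome IV, 10934191 to 10935903, minus strand) the lowest, median and highest values were 211.5, 232.2 and 239.5 CPM in N2 and 235.0, 258.3 and 275.6 CPM in xpf-1. Mutant replicate 1 lay within the N2 range and the other 5 above it. The increase was 0.16 ± 0.05 log2 units (SE, edgeR adjusted p 0.00507). It did not pass in replicates 1 to 3 (0.11, edgeR adjusted p 0.301), without a low-count filter (0.12, 0.078) or with N2 replicate 6 counted as a mutant (0.13, 0.0694).

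Within a library, the ratio of lgg-2 to lgg-1 does not depend on the scaling between libraries. Per kilobase of gene length, lgg-2 was at 9.36% to 10.9% of lgg-1 in N2 and at 8.76% to 9.62% in xpf-1. In 4 of the 6 mutant libraries the ratio lay below every N2 library. For N2 the mean log2 ratio of lgg-2 to lgg-1 was -3.32 ± 0.0888 (SD, n = 6), and for xpf-1 it was -3.45 ± 0.0571. The difference of -0.13 had a two-sided exact permutation p of 0.017, where 6 libraries against 6 allow no p below 0.0022. Without the 3 libraries that stood apart it was -0.12 and did not pass (exact permutation p 0.063).

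The sqst-1 transcript encodes the p62 homologue, a receptor that binds ubiquitin and Atg8 proteins and is itself degraded with its cargo (WBGene00011737, chromosome IV, 12034252 to 12037051, plus strand). It stood at 135.2 CPM in the lowest, 144.0 in the median and 153.6 in the highest N2 library, and at 216.7, 228.7 and 250.6 CPM in xpf-1. The gap between the groups was wider than the range within either of them. Its increase was 1.61-fold, or 0.69 ± 0.05 log2 units (SE; 95% interval 0.59 to 0.79; edgeR adjusted p 6.05e-14). Over the same 30 overlapping alternatives it ran from 0.60 to 0.77 and passed in each, with adjusted p-values from 6.17e-41 to 0.0385.

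The epg-5 entry (WBGene00016968, chromosome II, 6603441 to 6609356, minus strand) had few reads, 111 to 349 per library. Its values were 6.28, 8.64 and 10.5 CPM in N2 and 9.2, 12.01 and 16.4 CPM in xpf-1. Mutant replicate 6 lay within the N2 range and the other 5 above it. The log2 fold change of the epg-5 entry was 0.48 ± 0.12 (SE, edgeR adjusted p 0.00159), and 0.31 in replicates 4 to 6 (adjusted p 0.0601).

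This entry holds part of the gene. In the newer Ensembl annotation of the same build, epg-5 spans 6598344 to 6609365 with 23 exons and 7291 exon bases. The epg-5 entry of the deposited table has 4800 bases and touches 16 of those exons, at the 5′ end. The other 7 exons lie in a second entry, C56C10.11 (WBGene00016967, 6598342 to 6601119, minus strand, 2484 bases), whose identifier the newer annotation no longer holds. It was found by its position, outside the rule for named genes. On the opposite strand vps-33.2 lies between them and shares 8 exon bases with epg-5.

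C56C10.11 had more reads than the epg-5 entry and did not pass, with 14.9, 19.4 and 21.3 CPM in N2 and 15.7, 17.5 and 19.9 CPM in xpf-1. Its log2 fold change was -0.09 ± 0.08 (SE, edgeR adjusted p 0.376). Per kilobase, the 5′ entry was at 21.9% to 27.5% of the 3′ entry in N2 and at 29.2% to 43.6% in xpf-1, so all 6 mutant libraries lay above all 6 N2 libraries. The difference in the log2 ratio of the epg-5 entry to the C56C10.11 entry was 0.56 (two-sided exact permutation p 0.0022). That is the smallest p that 6 libraries against 6 allow, and the comparison was chosen after the values were seen. With both entries summed as 1 gene, the log2 fold change of epg-5 was 0.12 and the call was lost (edgeR adjusted p 0.23).

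**Figure D2:**
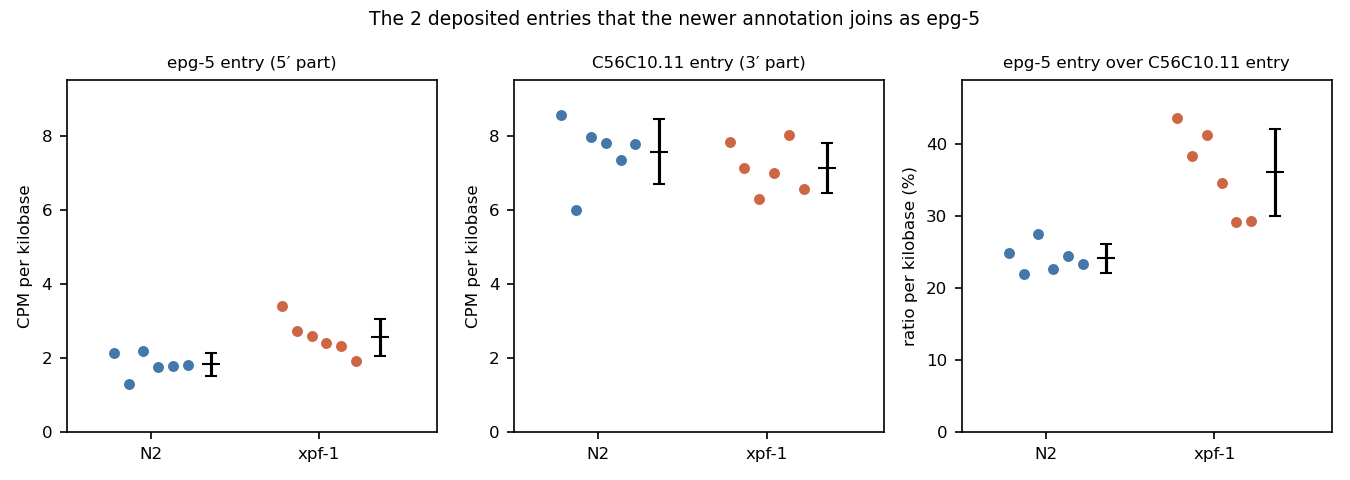
Levels per kilobase (CPM per kilobase of gene length) of the 5′ entry named epg-5 and the 3′ entry C56C10.11, and their ratio in percent, in each library of N2 (blue) and xpf-1 (orange); bars are mean ± SD of 6 libraries and all axes start at 0. The ratio ends at 27.5% in N2 and begins at 29.2% in xpf-1.

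Gene length went with the difference between genotypes over the whole table. With the tested genes split by length into 5 groups of equal size, in the shortest group, up to 729 bases, the median log2 fold change was -0.04 and 23.1% of genes were higher in xpf-1. In the longest group, from 2146 bases, the median was 0.15 and 44.1% were higher. Of the 10 genes, hlh-30, unc-51, atg-9, sqst-1 and epg-5 lie in the longest group and lgg-1 in the shortest. With a trend on length removed in each library, lgg-1 stood at 0.36, sqst-1 at 0.63, unc-51 at 0.23 and epg-5 at 0.23 log2 units, each past the threshold, with edgeR adjusted p-values of 9.05e-10, 1.04e-16, 0.000952 and 0.0474. The counts then were 7 higher and 2 lower, the latter hlh-30 and atg-9, against 29.3% and 30.7% of all tested genes. The summed epg-5 gene turned to -0.28 with the length trend removed (edgeR adjusted p 0.000407), so its direction depended on the gene model and on the length correction.

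**Figure D3:**
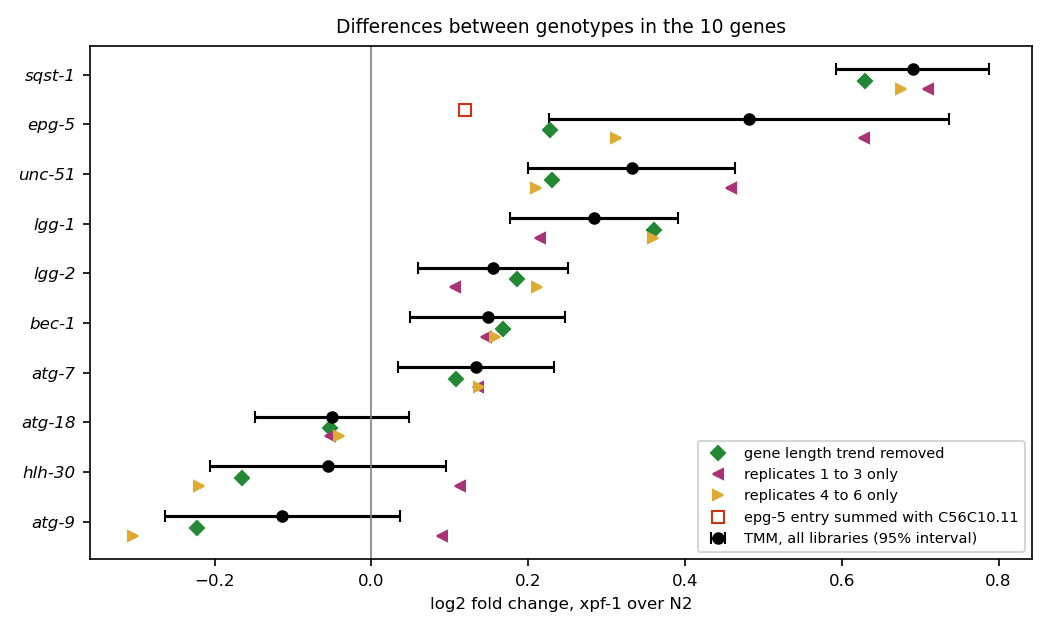
Difference between xpf-1 and N2 (log2 fold change, positive where xpf-1 is higher) in each of the 10 genes. Black points with bars are the edgeR estimate and its 95% interval, and coloured symbols are estimates with the length trend removed, in replicates 1 to 3, in replicates 4 to 6, and for epg-5 with both entries summed. For sqst-1 all of these lie between 0.63 and 0.71, while hlh-30 and atg-9 fall on both sides of 0.

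The transcripts spanned a wide range of levels. Per kilobase, the order in N2 was lgg-1 (2194 CPM per kilobase), lgg-2 (219.2), atg-18 (131.4), bec-1 (78.6), sqst-1 (58.8), atg-7 (42.4), atg-9 (25.3), unc-51 (15.6), hlh-30 (15.1) and the epg-5 entry (1.83). Neighbours in this order had ranges that did not overlap, except unc-51 and hlh-30. The level of lgg-1 per kilobase lay at the 99.5 percentile of tested genes in N2, that of hlh-30 at the 54.2 percentile and that of the epg-5 entry at the 20.9 percentile. In xpf-1, sqst-1 stood at 94.8 CPM per kilobase and bec-1 at 87.1, with overlapping ranges, so the order of their means was exchanged. The ranges of atg-9 and unc-51 and those of unc-51 and hlh-30 also overlapped in the mutant.

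The further genes of the pathway were called in both directions, in shares near those of all genes. Of 67 further genes listed by step, 66 had enough counts, of which 25 rose, 22 fell and 19 did not pass, or 37.9% and 33.3% of those tested, where 30.1% and 29.6% of all tested genes were higher and lower. The median log2 fold change of the 66 was 0.06, against 0.03 over all. The balance moved with the settings, to 31 higher and 19 lower with upper quartile scaling and to 22 higher and 25 lower without a low-count filter. The counts by step that follow hold 8 to 17 genes each, stand against the 30.1% and 29.6% of all genes and describe these genes only. The gene left out, sqst-4, had 4 reads over all libraries. Against a 1.5-fold change, 0 passed as higher and 2 as lower, where 6.88% and 4.65% of all tested genes did so.

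Among 10 initiation and nucleation genes 5 rose and 3 fell, with a median of 0.19. The largest log2 fold change among them was that of atg-2, which lies outside the rule for named genes. It was 0.56 ± 0.10 (SE, edgeR adjusted p 0.000255), from 57.6 ± 7.96 to 85.0 ± 12.3 CPM (SD, n = 6 each). The lipid kinase gene vps-34, whose product acts with BEC-1, rose from 71.7 ± 3.57 to 97.7 ± 5.31 CPM and atg-11, the worm FIP200, from 36.2 ± 3.28 to 46.8 ± 4.57 CPM (SD, n = 6 each). The ATG14 homologue epg-8, which acts in the same lipid kinase complex, fell from 152.6 ± 4.6 to 124.1 ± 3.37 CPM, and epg-4, an endoplasmic reticulum protein gene, from 133.9 ± 3.88 to 105.0 ± 6.52 CPM. The gene of the regulatory subunit of that complex, vps-15, which lies outside the rule for named genes, rose from 38.7 ± 3.32 to 48.96 ± 3.3 CPM (edgeR adjusted p 3.54e-05). Of its 4 genes given here, vps-34, vps-15 and bec-1 rose and epg-8 fell.

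Of 8 conjugation genes 5 rose and 2 fell. The largest change was in lgg-3, which encodes the ubiquitin-like ATG12 and fell from 119.3 ± 5.45 to 66.7 ± 4.67 CPM (log2 fold change -0.84 ± 0.05, SE, edgeR adjusted p 5.25e-15). The E2-like gene atg-3 fell from 45.7 ± 3.57 to 38.1 ± 2.66 CPM. In contrast, atg-16.2, a partner of the ATG12 conjugate, rose from 137.6 ± 7.78 to 175.1 ± 5.34 CPM and the Atg8 protease gene atg-4.1 from 33.4 ± 1.64 to 42.2 ± 3.06 CPM.

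Among 10 tested cargo and selective autophagy genes 3 rose and 5 fell. The parkin gene pdr-1, which acts in the removal of mitochondria, fell from 120.5 ± 7.43 to 74.1 ± 2.72 CPM. Lower values were also found for sepa-1, a receptor for germ granule proteins in embryos, from 119.3 ± 8.52 to 80.5 ± 3.87 CPM, and for ikke-1, a kinase of paternal mitochondria removal, from 114.2 ± 9.97 to 75.7 ± 5.92 CPM. The scaffold gene epg-2 rose from 416.8 ± 23.1 to 532.4 ± 20.9 CPM. The paralogs sqst-2 and sqst-3 did not pass, with log2 fold changes of 0.23 and 0.41 (edgeR adjusted p 0.113 and 0.301).

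Of 13 genes for fusion with the lysosome 3 rose and 6 fell, with a median of -0.11. Both subunits of the RAB-7 activator fell, sand-1 from 162.1 ± 5.59 to 117.6 ± 9.99 CPM and ccz-1 from 44.96 ± 2.49 to 34.1 ± 2.62 CPM. Of the HOPS tether subunits, vps-39 fell (238.2 ± 23.9 to 188.1 ± 3.47 CPM) and vps-18 rose (27.04 ± 1.21 to 35.0 ± 2.74 CPM). Of the other 4 listed, outside the rule for named genes, vps-11 and vps-41 rose, vps-33.1 fell and vps-16 did not pass (-0.11, edgeR adjusted p 0.0682).

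Among 17 regulators 5 rose and 5 fell. The 4 with the smallest adjusted p all fell. They were rheb-1, the GTPase that activates TOR kinase (101.4 ± 2.75 to 69.4 ± 5.04 CPM), mxl-2, the partner of the transcription factor MML-1 (56.97 ± 5.46 to 37.7 ± 2.89 CPM), nprl-3 of a complex that restrains TOR (57.5 ± 3.38 to 40.97 ± 3.17 CPM) and the Rag GTPase gene ragc-1 (314.4 ± 15.8 to 248.4 ± 8.82 CPM). Higher and lower genes of all steps stand beside the marker differences given above, with 25 of 26 germline and oocyte markers lower. The tissues that hold these transcripts were not measured, and a link was not tested.

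Of 8 lysosomal lipase and membrane genes linked to HLH-30, 4 rose, 1 fell and 3 did not pass. The last were lipl-1, lipl-3 and lmp-1, with log2 fold changes of 0.03, 0.14 and -0.003 (edgeR adjusted p 0.661, 0.515 and 0.962). The lipase gene lipl-2 rose from 66.3 ± 4.14 to 86.6 ± 5.37 CPM and scav-3, a lysosomal membrane protein gene, from 138.9 ± 5.05 to 167.1 ± 8.27 CPM. lmp-2, a LAMP-like gene, rose from 9.05 ± 1.29 to 11.6 ± 0.574 CPM. The lipase gene lipl-4, at 2.25 ± 0.4 CPM in N2, fell to 1.27 ± 0.351 CPM. The calls of lmp-2 and lipl-4 were lost in replicates 4 to 6 (edgeR adjusted p 0.0689 and 0.138).

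**Figure D4:**
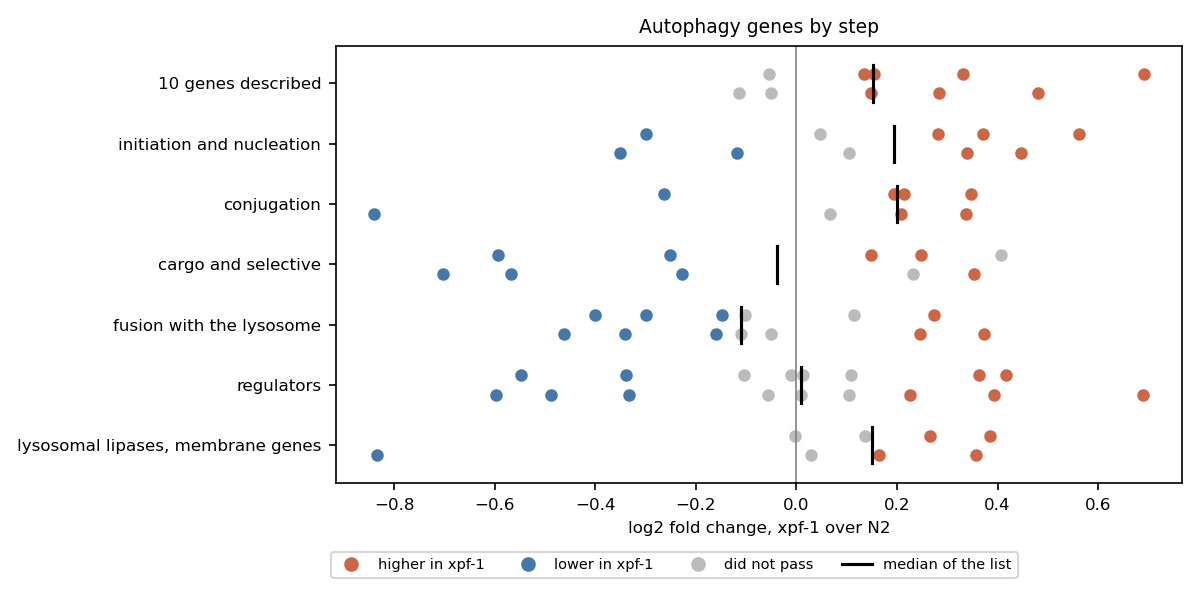
Difference between xpf-1 and N2 (log2 fold change, positive where xpf-1 is higher) for the 10 genes described and for the further autophagy and lysosomal genes grouped by step; orange passed as higher, blue as lower, grey did not pass, and black lines are medians. The medians run from -0.11 for fusion with the lysosome to 0.20 for conjugation.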

How the data were processed

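The submitters' processing notes name HISAT2 2.1.0, featureCounts 1.5.0-p3, CASAVA and the build WBcel235. For strand, multi-mapping reads and annotation release, the settings were not given in the sources used here. Overlapping or near-identical genes may therefore share reads. The authors deposited raw read counts per gene, which were used for every test. They also deposited FPKM values and a signal of counts divided by 1 size factor per library, which were not used. A log2 fold change and p-values per gene are in the authors' deposited table, per the file headers, and only its calls for the members were used. Coordinates and gene lengths are those of the deposited table unless the newer annotation is named.

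The test was that of edgeR 4.0.16 under R 4.3.3 (filterByExpr, TMM, quasi-likelihood test with robust dispersion, xpf-1 against N2, no covariates). Its p-values were adjusted over 14248 genes. The fit was also run on simulated data with few changed genes, equal dispersion for all genes and no length trend. That run therefore does not show how the test does with the many changes and the length trend seen here. The biological coefficient of variation was 9.62%. Standard errors are the log2 fold change over the root of the F statistic. The lgg-2 ratio used 0.5 added counts and an exact permutation test (scipy 1.17.1). The length alternative removed a lowess trend (span 0.3) of log2 CPM on log2 length per library.

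Members and lists were chosen with earlier results of these data known. All 10 members are named, and of each further list up to 4 genes with the smallest adjusted p among those that passed. Genes named outside this rule are said to be so or stand beside a count. Same-numbered libraries did not deviate together (correlations of -0.00312 to 0.12). Libraries of 1 group differed by more than sampling noise, but separate preparations of 1 biological sample can differ so too. That spread therefore cannot tell whether the libraries are independent. Each was counted as 1 replicate. If the labels' lower number of biological replicates holds, the p-values given here, exact permutation ones included, are too small. The libraries that stood apart were named after their values were seen. Alternatives included DESeq2 1.42.0 and limma-voom (limma 3.58.1).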

Additional observations from a re-analysis of the deposited data

Results flagged for a closer look

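Among 24 sets of 6 libraries that were checked (10 genes and 2 ratios in each genotype), 2 held a library far from the others, where chance gives about 1 in 20. For atg-9 in xpf-1, replicate 1 had 86.6 CPM against 64.1 to 69.5 CPM in the other 5 mutant libraries. For atg-18 in N2, replicate 2 had 204.7 CPM against 229.3 to 239.9 CPM in the other 5.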

How the results depend on the processing

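The number of genes called over the whole table was 8509, and 8195 to 8594 when 1 library was left out. The 10 genes gave 6 to 7 higher and 0 to 1 lower calls in those fits, the single lower call being atg-9 without mutant replicate 1. Of all tested genes, 28.4% to 30.3% were higher and 28.3% to 29.1% lower in the same fits. The further genes gave 24 to 27 higher and 20 to 24 lower calls, and also 31 and 19 with upper quartile scaling, 30 and 19 with library totals, 22 and 25 without a low-count filter, and 17 and 19 in replicates 1 to 3. Over the whole table, 4291 genes were higher and 4218 lower, which became 5134 and 3513 with upper quartile scaling and 5023 and 3526 with library totals, and the median log2 fold change moved from 0.03 to 0.10 in both. With 1 library left out, the lgg-2 to lgg-1 difference ran from -0.15 to -0.10. Against a 1.5-fold change 1643 genes, 1 of the 10 as higher, and of the further genes 0 as higher and 2 as lower passed. Of all tested genes, 6.88% then passed as higher and 4.65% as lower. Without a low-count filter, 4 of the 10 were higher and 1 lower, against 17.6% and 17.4% of all tested genes. In replicates 1 to 3 there were 3 higher and 0 lower, against 22.7% and 23.0%. In replicates 4 to 6 there were 5 higher and 2 lower, against 23.6% and 25.1%. Removing the length trend gave 7 higher and 2 lower, against 29.3% and 30.7%. With both epg-5 entries summed as well, there were 6 higher and 3 lower, against 29.3% and 30.8%, and epg-5 was at -0.28. That sum was chosen after seeing the data. The lgg-2 to lgg-1 difference was -0.11 in replicates 1 to 3 and -0.15 in replicates 4 to 6 (exact permutation p 0.20 each, where 3 against 3 cannot pass) and -0.10 with N2 replicate 6 counted as a mutant (exact permutation p 0.081). It was -0.12 without the 3 libraries that stood apart (exact permutation p 0.063), a fit chosen after seeing the data. The sign of hlh-30 turned to 0.0203 with upper quartile scaling, 0.0132 with library totals, 0.113 in replicates 1 to 3 and 0.0319 with N2 replicate 6 counted as a mutant. atg-18 turned to 0.0259 and 0.0185 under these scalings, and atg-9 to 0.0905 in replicates 1 to 3. The cause of these shifts was not tested. With the replicate number as a block, 7 of the 10 were higher and 0 lower, against 30.3% and 29.7% of all tested genes. With the length trend removed as well there were 7 and 2, against 29.3% and 30.7%. The replicate block thus changed none of the members' calls. Of the 10 genes the epg-5 entry had the fewest reads, 111 to 349 per library, and its SD was 17.2% of the mean in N2 and 19.5% in xpf-1.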
